A study of Ricinus communis with 12 samples.

Results

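The transcripts described here are the coding transcripts of mature castor seeds (Ricinus communis) whose reads were concentrated in the embryo. They were chosen from the measured values, so their difference between tissues is a description and carries no test. A RefSeq coding transcript (accession XM) was taken when its mean normalized value over embryo libraries 1, 2, 3, 4 and 6 was at least 200 and at least 8 times the mean over endosperm libraries 1, 2, 3, 4 and 6 plus 1. The rule left out library 5 of both tissues. It gave 77 of 27902 coding transcripts, among 29707 transcripts in all, and 1.37% of the 5601 coding transcripts that reached the same embryo mean. The number rests on the libraries used: over all 6 libraries of each tissue the same rule gave 45 transcripts, of which 43 were among the 77, and without endosperm library 4 it gave 118, of which 75 were among them.

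The 12 mRNA libraries, 6 from embryo and 6 from endosperm, came from mature seeds of the cultivar Baker 296 grown in a greenhouse, and as labelled the 2 groups differ only in the tissue, with no treatment named. Each tissue is labelled as such and no further part of the embryo is named. The labels do not say how many seeds or plants stand behind a library, so the spread between libraries may be technical in part. Embryo libraries held 10415612 to 12968343 assigned reads, and endosperm libraries 1, 2, 3, 4 and 6 held 6920870 to 8871518. Endosperm library 5 held 2675474 and, for these transcripts, stood apart from the other 5 endosperm libraries. Normalized values are the authors' counts divided by 1 size factor per library. They count reads and are not divided by transcript length, so an order among transcripts is an order of reads, not of molecules. In tissue pieces, fewer cells of a type and less RNA per cell cannot be told apart.

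In a castor seed the endosperm is the bulky living tissue that stores oil and protein, and the embryo is an axis with a pair of thin, leaf-like cotyledons that absorb the reserves at germination. Mature dry seeds of many plants keep mRNAs made during late development, and embryo and endosperm differ in descent, since the endosperm arises from the second fertilization. A gene can give several transcripts that share most of their sequence, and short reads from the shared stretches are divided among them by estimation. Of the 77 members, 66 matched 63 genes of the newer castor assembly ASM1957865v1 by accession, and 11 had no match. None of the 63 genes has a short name there and the table gives no products, so no role is stated for any member. No independent check of the tissue labels was made here, since these transcripts were themselves chosen by the labels. No defining marker gene of either tissue is named in the table. Of the 66 matched members, 29 belonged to a gene with no other matched transcript in the deposited table and 37 (56.1%) to a gene with 1 to 6 others. Among all matched coding transcripts with an embryo mean of at least 200, 29.4% had another. In 3 genes, LOC8258624, LOC8261747 and LOC8284359, a pair of transcripts were both members. A member's value under a gene's name is that of the member transcript alone, unless a gene sum is named.

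The 77 transcripts took a small share of the embryo's reads. They held 0.766%, 0.724%, 0.806%, 0.787% and 0.938% of the reads of embryo libraries 1, 2, 3, 4 and 6, a mean of 0.804% ± 0.0807 (SD, n = 5). In endosperm libraries 1, 2, 3, 4 and 6 they held 0.0435%, 0.0339%, 0.0368%, 0.0954% and 0.0393%, a mean of 0.0498% ± 0.0257 (SD, n = 5). The rule fixed the gap between these groups, and within the endosperm library 4 was highest. In the libraries outside the rule, embryo library 5 held 0.906% and endosperm library 5 held 0.400%. Embryo library 5 lay among the other embryo libraries, while endosperm library 5 lay far above the other 5 of its tissue and below all embryo libraries. The whole reads behind these shares numbered 84779 to 100287 in embryo libraries, 2348 to 8463 in endosperm libraries 1, 2, 3, 4 and 6, and 10715 in endosperm library 5.

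**Figure D1:**
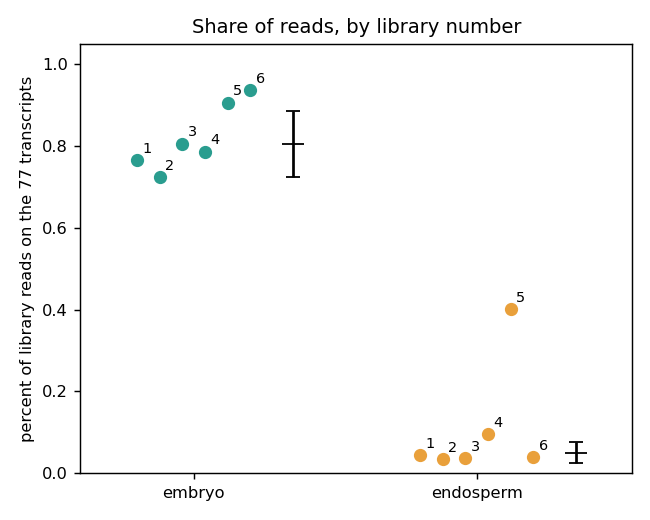
Percent of each library's reads on the 77 transcripts (y axis), with 1 point per library marked by its number and, in black, the mean ± SD of libraries 1, 2, 3, 4 and 6. Embryo points lie between 0.724% and 0.938%, endosperm points 1, 2, 3, 4 and 6 at or below 0.0954%, and endosperm library 5 at 0.400%.

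Most members were of modest abundance, and a few carried much of the reads. The embryo mean ranged from 215 to 14789 with a median of 374 and quartiles of 269 and 813, below the median of 546 over the 5601 coding transcripts with the same lowest mean. Of the 77 members, 55 had an embryo mean of at least 300, 31 at least 500, 10 at least 1000 and 4 at least 2000. The most abundant member alone held 22.8% of the members' reads, the first 4 held 40.8%, 8 members held 50% and 52 members held 90%. Just inside the lower limit stood XM_002536166 at 215 and XM_015727917 of LOC8261747 at 217, and just outside stood LOC8275414 at 197 and XM_015727421 at 194. Just inside the 8-fold limit stood LOC8281878 at a ratio of 8.05 and LOC8289805 at 8.27, and just outside stood LOC8273610 at 7.94 and XM_015720574 at 7.93.

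LOC8284402, the member with the most reads, ranked 43 among all coding transcripts by embryo mean. Its normalized value was 12243, 11942, 14353, 14164 and 21244 in embryo libraries 1, 2, 3, 4 and 6, and 585, 642, 697, 1049 and 698 in the endosperm libraries of the same numbers. The groups did not overlap, and the means were 14789 ± 3769 and 734 ± 182 (SD, n = 5 each), a ratio of 20.1 to the endosperm mean plus 1. Library 5 gave 19331 in embryo and 1917 in endosperm, a ratio of 10.1, so the most abundant member held its 8-fold margin in the libraries outside the rule. Embryo libraries 5 and 6 were its highest. Without it the members' share of embryo reads over libraries 1, 2, 3, 4 and 6 was 0.619% ± 0.0318 (SD, n = 5).

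LOC8274353 came second in reads, with embryo values of 5709.9, 4656, 6008, 6298 and 3928 in libraries 1, 2, 3, 4 and 6. The endosperm values of the same numbers were 566, 202, 118, 1239 and 222, and library 5 gave 5854 in embryo and 7870.2 in endosperm. Endosperm library 5 thus lay above all 6 embryo libraries. LOC8289805 had 3375, 3190.2, 4086, 5107 and 2834 in embryo and 754, 376, 340.3, 509 and 266 in endosperm for libraries 1, 2, 3, 4 and 6, and 4168 and 1719 in library 5. Its groups did not overlap in any library, but endosperm library 5 was again the highest of its tissue. LOC8260886, which has no other transcript in the table, had 2571, 2069.8, 2897, 2953 and 2506 in embryo and 161, 215, 299, 413 and 257 in endosperm for the same numbers. Library 5 repeated its difference, with 2599 and 259.

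The next members by reads were LOC8265625 with an embryo mean of 1980.4 ± 1396 and an endosperm mean of 109.9 ± 41.7, and LOC8281316 with 1712 ± 442 and 199 ± 191 (SD, n = 5 each). LOC8285072 stood at 1217 ± 335 and 143 ± 193, and LOC8285029 at 1134 ± 186 and 94.3 ± 70.1 (SD, n = 5 each). LOC8267314 had 1131 ± 456 and 21.7 ± 7.85, and LOC8276659 1061 ± 144 and 122 ± 53.7 (SD, n = 5 each). LOC8265379 had 961 ± 736 and 10.7 ± 6.25, and LOC8258424 959 ± 183 and 108 ± 114 (SD, n = 5 each). For LOC8281316, LOC8285072 and LOC8258424 the endosperm SD was close to or above the endosperm mean, with some endosperm libraries well above the mean and others at or near 0. These genes, LOC8285029 and LOC8276659 have other transcripts. The mean gene sums were 4201 in embryo and 1657 in endosperm for LOC8281316, and 3040 and 1041 for LOC8285029. They were 1640 and 402 for LOC8285072, 2574 and 913 for LOC8276659, and 1129 and 139 for LOC8258424.

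The libraries numbered 5 repeated the concentration for only some members. Embryo library 5 was at least 8 times endosperm library 5 plus 1 for 36 of 77 members (46.8%), where 2.59% of the 5560 coding transcripts with at least 200 in embryo library 5 passed the same limit. The median ratio there was 5.76, with quartiles of 1.10 and 27.5. The value was higher in embryo for 64 members and higher in endosperm for 13, and for 28 members the ratio was under 2. With 1 library a tissue these counts have no replicate check. The share of all coding transcripts higher in embryo library 5 was not counted, so nothing is read from the 64. At the median, coding transcripts with an embryo mean of at least 200 stood at 95.9% of that mean in embryo library 5 and 78.7% in endosperm library 5. When another number was held out instead and the members were chosen from the remaining 5 numbers, the limit was passed by 39 of 43, 38 of 45, 36 of 43, 30 of 42 and 33 of 44 for numbers 1, 2, 3, 4 and 6. These shares ran from 71.4% for number 4 to 90.7% for number 1, all above that of number 5. Over coding transcripts with at least 200 in the held-out embryo library, 3.16%, 2.93%, 3.56%, 1.63% and 3.21% passed, in the same order. In these choices of members endosperm library 5 was among the 5 that the rule used, so the transcripts high there had less chance to be chosen.

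The libraries numbered 5 compared differently with the rest of their tissues. Embryo library 5 lay within the range of the other 5 embryo libraries for 51 of 77 members (66.2%), close to the 60.1% of all coding transcripts with an embryo mean of at least 200. Endosperm library 5 lay above the range of the other 5 endosperm libraries for 42 of 77 members (54.5%), where the same held for 28% of those coding transcripts. The rule favours this gap, because it chose members for low values in the other 5 endosperm libraries and left library 5 free, so nothing is read from it. It lay within the range for 28 members and below it for 7. Endosperm library 5 had the lowest depth of the 12, and the part that depth has in these counts was not tested.

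Members of genes with 1 transcript in the table held their margin in library 5 more often than members of genes with several. Of the 29 single-transcript members, 24 were at least 8-fold higher in embryo library 5, with a median ratio of 17.6, and all 29 were higher in embryo. Of the 37 members of genes with several transcripts, 7 passed, with a median ratio of 1.72, and 26 were higher in embryo. The counts higher in embryo have no share over all coding transcripts beside them. For passing the limit, the order was the reverse over matched coding transcripts with at least 200 in embryo library 5. The limit in library 5 was passed by 0.985% of 2943 from single-transcript genes and 3.87% of 1215 from several-transcript genes. These shares are 29 and 47 transcripts and count the members with at least 200 in embryo library 5, so they are no outside baseline. Of the 11 unmatched members, 5 passed. The rule over all 6 libraries kept 24 of the 29, 12 of the 37 and 7 of the 11. The kinds of gene were compared after the values had been seen, and members are not replicates, so the contrast is a description.

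**Figure D2:**
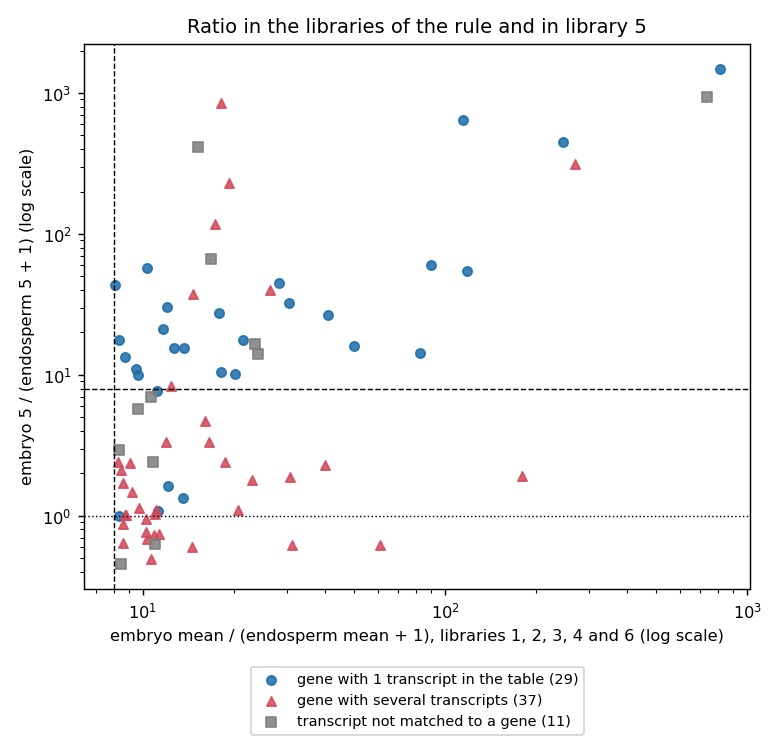
Ratio of embryo to endosperm plus 1 for each of the 77 members, from the means of libraries 1, 2, 3, 4 and 6 (x axis) and from library 5 (y axis), both on log scales, with dashed lines at 8 and a dotted line at 1. Blue circles (1 transcript in the table) lie mostly above the horizontal dashed line, 24 of 29, and red triangles (several transcripts) mostly below it, with 7 of 37 above.

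For the 37 members of genes with several transcripts, the gene sums are given beside the members. A sum with a lower ratio than its member follows in part from choosing the member for its ratio in the same libraries. The sum of all transcripts of the gene had a median ratio of 3.27 over libraries 1, 2, 3, 4 and 6. The sum stayed past 8-fold for 6 of the 37, lay between 2 and 8 for 26 and under 2 for 5, and no gene's sum was lower in embryo. The 6 belonged to LOC8258424, LOC8288957, LOC8269959, LOC8262586 and, with a pair of members, LOC8284359. In library 5 the median of the gene sums was 1.69 and 0 of 37 passed 8-fold. There 32 of 37 were higher in embryo, a count with no share over all genes beside it. For the other numbers the median of the sums was 3.11, 3.10, 4.14, 2.74 and 3.78 in order. In all, 34 of the 63 matched genes had a sum past 8-fold over libraries 1, 2, 3, 4 and 6, of which 29 have the member as their only transcript, so that the rule fixed the sum.

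Within these genes the median member's part of the gene's reads was lower in endosperm libraries 1, 2, 3, 4 and 6 than in embryo. The rule favours this gap, because it chose members for low values in those endosperm libraries, and only library 5 was outside it. In embryo libraries 1 to 6 the median member held 39.5%, 45.7%, 44.4%, 39.1%, 35.4% and 40.3% of its gene's normalized value. In endosperm libraries 1, 2, 3 and 6 it held 3.60%, 2.49%, 3.43% and 2.13%, in library 4 19.5% and in library 5 35.6%. At the median, endosperm library 5 was near the embryo libraries and library 4 in between, but single members were not at their embryo share. The member of LOC8274353 held 34.7%, 35.5%, 28.9%, 23.4%, 32.03% and 35.1% of the gene in embryo libraries 1 to 6. In endosperm libraries 1 to 6 it held 12.7%, 4.77%, 3.43%, 19.5%, 84.5% and 5.73%. The gene's sum in endosperm was 4446, 4228, 3428, 6358, 9316 and 3875, so the gene was read in all 6 endosperm libraries. In endosperm library 5 its member's share was above all 6 embryo libraries.

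LOC8285072, with 2 transcripts, was divided between them differently from one endosperm library to the next. Its member held 0.694%, 99.1%, 1.01%, 69.8%, 81.1% and 0.515% of the gene in endosperm libraries 1 to 6, against 68.01% to 88.9% in embryo. The endosperm values of the member were 2.83, 331, 3.21, 376, 914 and 2.12. Across the 37 members the share of the gene departed from its embryo mean by a median of 12.6 percentage points in endosperm library 5, 17.7 in library 4, and 22.4 to 28.1 in the others. In the embryo libraries the median departure was 3.24 to 6.63 points. Over all 1334 coding transcripts of such genes with an embryo mean of at least 200 the departures were 7.15 to 9.64 points in the 6 endosperm libraries, with 8.37 in library 5. The larger departures of the members in libraries 1, 2, 3, 4 and 6 follow from the rule. The part that the estimated division of reads among similar transcripts has in these shares was not tested.

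**Figure D3:**
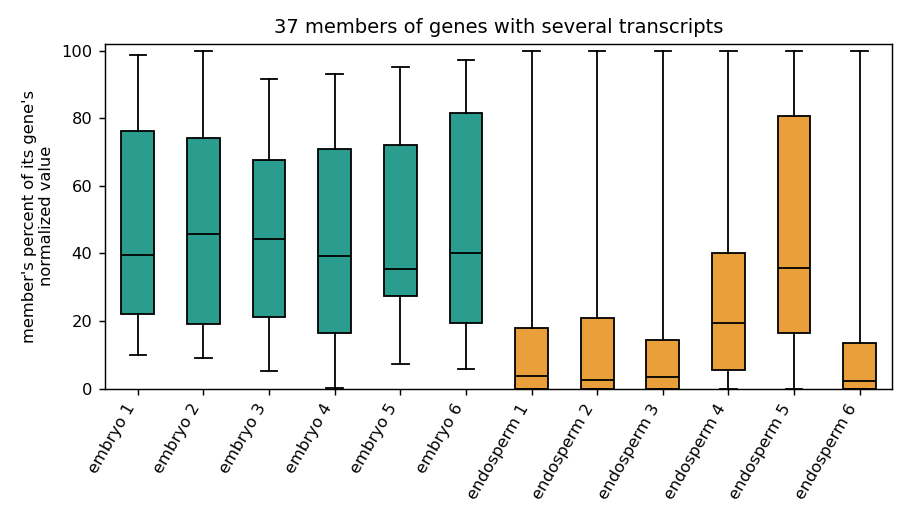
Percent of the gene's normalized value held by the member (y axis) in each library, for the 37 members of genes with several transcripts. Boxes give the quartiles with the median as a line and whiskers reach the lowest and highest member; the median is 35.4% to 45.7% in embryo libraries, 2.13% to 3.60% in endosperm libraries 1, 2, 3 and 6, 19.5% in library 4 and 35.6% in library 5.

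Members that appeared in endosperm did so mostly in library 5 alone. A member was counted as appearing in an endosperm library when its value there was at least 25% of its own embryo mean. This held for 1, 1, 0, 12, 40 and 1 members in endosperm libraries 1 to 6, while 93%, 92%, 91.6%, 96.4%, 95.3% and 91.8% of the 5601 coding transcripts with an embryo mean of at least 200 reached it. In libraries 1, 2, 3, 4 and 6 the small counts follow from the rule, and library 5 is the one the rule did not use. In all, 34 members appeared in no endosperm library, 32 in 1, 10 in 2 and 1, LOC8285072, in 3. Of the 32, the library was number 5 for 29 and number 1, 4 or 6 for 1 each. Without endosperm library 5, 13 members appeared in a single library.

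The values in endosperm library 5 ran from near 0 to above the embryo mean. It held less than 10% of the embryo mean for 36 members, 10% to 25% for 1, 25% to 50% for 11, 50% to 100% for 11, and more than the embryo mean for 18. Of the 40 members that appeared there, 30 belonged to genes with several transcripts, 5 to genes with 1 and 5 were unmatched. The 37 members of several-transcript genes held 45.9% of the members' reads in embryo but 81.3% in endosperm library 5, and the 29 others that matched held 47.4% and 14.0%. In endosperm library 4, 12 members appeared, and 11 of them also did in library 5, which is 91.7% of the 12 and 27.5% of the 40. In endosperm library 4 these 40 members reached 18.6% of their embryo mean at the median, and in libraries 1, 2, 3 and 6 they reached 2.15% to 3.49%. The medians of the 37 other members were 5.48% and 2.87% to 4.54%. Across the 77 members, Spearman's correlation with the library 5 percentages was 0.544 for library 4 and between -0.018 and 0.190 for libraries 1, 2, 3 and 6, as a description over transcripts that share each library's depth and, in part, their gene.

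**Figure D4:**
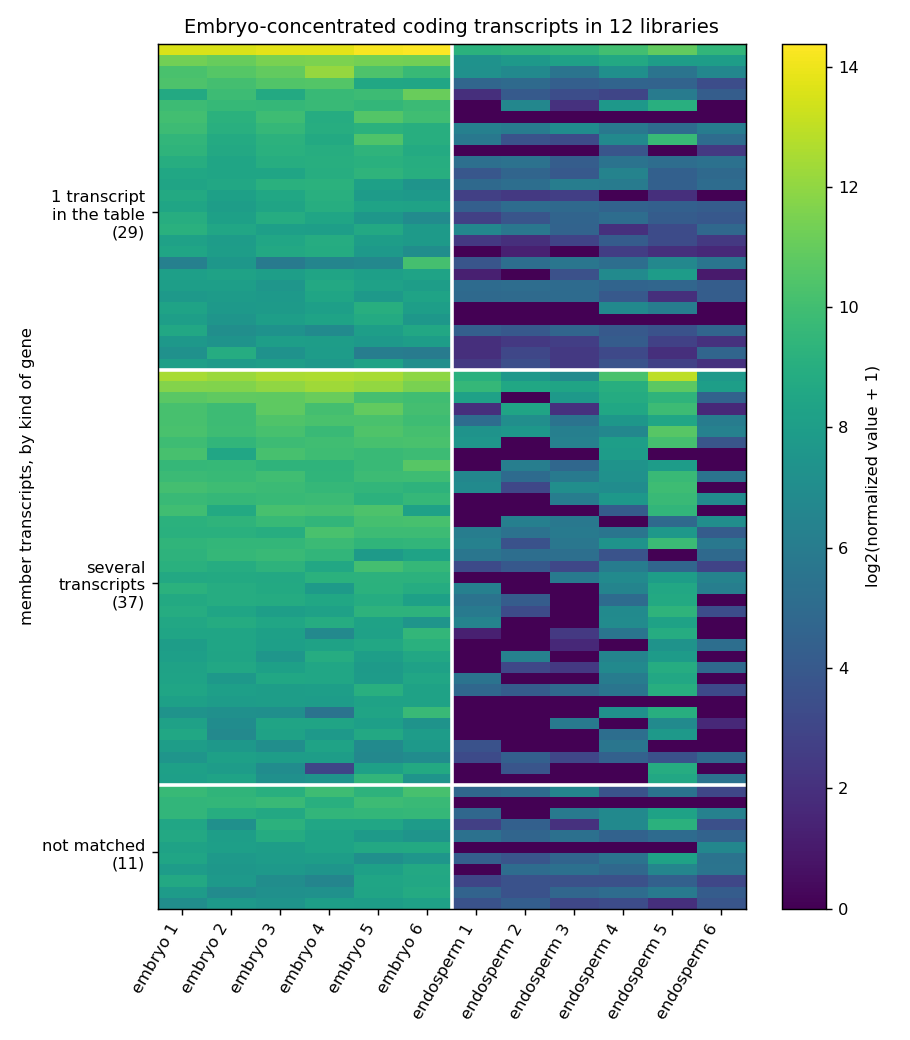
Log2 of the normalized value plus 1 of each of the 77 members (rows) in the 12 libraries (columns), rows sorted by the kind of gene and, within it, by embryo mean. In the middle block of 37 members, endosperm library 5 is bright and library 4 intermediate in rows where libraries 1, 2, 3 and 6 are dark; in the upper block of 29 members few rows differ in this way.

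Of the 10 members with the highest values in a single endosperm library, LOC8274353 and LOC8289805 came first, with the values above. LOC8276659 had 1191, 958, 1182, 866, 1383 and 1107 in embryo libraries 1 to 6 and 165, 193, 73.8, 99.97, 1584 and 79.4 in endosperm libraries 1 to 6. LOC8270362 had 1066, 953, 884, 767, 699.8 and 626 in embryo libraries 1 to 6 and 119, 7.20, 136, 127, 963 and 0 in endosperm libraries 1 to 6. In both, endosperm library 5 lay within or above the embryo range and every other endosperm library lay below it. LOC8269959 had 674, 719, 738, 897, 670.4 and 710.3 in embryo libraries 1 to 6 and 77.8, 11.5, 50.3, 169, 877 and 52.9 in endosperm libraries 1 to 6. LOC8266654 had 872, 747, 825, 895, 598 and 771 in embryo libraries 1 to 6 and 0, 0, 66.3, 203, 868 and 123 in endosperm libraries 1 to 6. LOC8269959 is one of the genes whose sum was past 8-fold in the libraries of the rule, yet in library 5 its sum was 762 in embryo and 1032 in endosperm.

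LOC8258593 had 873, 828, 984, 673, 934 and 979.8 in embryo libraries 1 to 6 and 100.4, 31.7, 57.8, 152, 851 and 45.5 in endosperm libraries 1 to 6. LOC8263371 had 989, 419.96, 1179, 1061, 1331 and 304 in embryo libraries 1 to 6. In endosperm libraries 1 to 6 it had 0, 0, 0, 16.99, 696 and 0, so this member's endosperm reads came almost wholly from library 5. The sum of its gene's transcripts was 643, 435, 506, 530, 1365 and 655 in endosperm libraries 1 to 6. The remaining pair of the 10 highest belong to genes with 1 transcript in the table. LOC8282148 had 709, 442, 601, 421, 1352 and 523 in embryo libraries 1 to 6 and 53.7, 11.5, 8.56, 111, 828 and 32.8 in endosperm libraries 1 to 6, and its embryo value was also highest in library 5. LOC8267576 had 915, 793, 773, 853, 719 and 878 in embryo libraries 1 to 6 and 0, 99.4, 3.21, 204, 538 and 0 in endosperm libraries 1 to 6. The other single-transcript members that appeared in endosperm library 5 were LOC8280522 at 250.1, LOC8267687 at 103 and LOC8279608 at 66.1.

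The 3 single appearances outside library 5 were in different libraries, and these members are named after their values were seen. LOC8264198 stood at 247 in endosperm library 4 and at 0 in the other 5, with an embryo mean of 916. This concerns the member alone: the gene has 6 other transcripts, and its sum was 1475 to 2097 in the endosperm libraries. LOC8281878 stood at 100.4 in endosperm library 1 and between 2.999 and 51.8 in the others, with an embryo mean of 339. XM_015725529 stood at 99.5 in endosperm library 6 and at 0 elsewhere, with an embryo mean of 318. Listed zeros were common: 37 of 77 members (48.1%) were at 0 in at least 1 of endosperm libraries 1, 2, 3, 4 and 6, against 2.39% of the 5601 coding transcripts, a gap that the rule favours. In 21 members 1 of these libraries stood at 0 and another at 50 or more. Of the 37 with a 0, 25 belonged to genes with several transcripts.

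A few members were not read in endosperm at all. LOC8274244, XM_002530982, LOC8263739 and LOC8284653 had 0 reads in all 6 endosperm libraries, library 5 included. Their embryo means over 6 libraries were 925, 769, 277 and 279.8. Against the limit that a count of 0 allows, 3 counts over the 6 endosperm libraries or a normalized value of 0.648, they were at least 1428-fold, 1187-fold, 428-fold and 432-fold higher in embryo. This limit covers counting error only. LOC8274244 had 1039, 571, 966, 472, 1487 and 1018 in embryo libraries 1 to 6. LOC8263739 has a pair of other transcripts, and its gene sum was 512 in embryo and 174 in endosperm, so its 0 concerns the transcript and not the gene. The other members with the largest ratios over libraries 1, 2, 3, 4 and 6 were LOC8263371 at 179.7 and LOC8275484 at 118. The gene sum of LOC8263371 had a ratio of 2.91. LOC8275484 had 353, 252, 402, 464, 212 and 131 in embryo libraries 1 to 6 and 0, 1.44, 0, 4.998, 2.87 and 2.12 in endosperm libraries 1 to 6, low in every endosperm library, while LOC8263371 did not hold its ratio in library 5.

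In the reference's gene order, 2 pairs of member genes had at most 9 genes between them, and the number that position alone would give was not computed. LOC8284653 and LOC8284656 are separated by 2 genes, and both were among the 7 members with a ratio of at least 100. LOC8284656 had 649, 405, 551, 493, 642 and 444 in embryo libraries 1 to 6 and 0, 0, 0, 12.996, 0 and 4.23 in endosperm libraries 1 to 6, 17 endosperm reads in all. LOC8284653 had 266, 179, 267, 323, 448 and 196 in embryo libraries 1 to 6 and 0 in every endosperm library. Of the genes between them, LOC8284655 had a mean of 13.4 in embryo and 10.4 in endosperm, and the other was not matched to a transcript of the table. LOC8289805 and LOC8289808 are also separated by 2 genes. LOC8289808 had 261, 263, 185, 411, 293 and 255 in embryo libraries 1 to 6 and 31.1, 34.6, 32.1, 23.99, 25.9 and 17.99 in endosperm libraries 1 to 6, without overlap in any library. LOC8289807, which lies between them, had a mean of 376 in embryo and 323 in endosperm.

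Among embryo libraries the members had larger coefficients of variation than coding transcripts at large. The coefficient of variation (CV, the SD divided by the mean over embryo libraries 1, 2, 3, 4 and 6) had a median of 29.7% with quartiles of 19.7% and 39.8%. Over the 5601 coding transcripts with the same lowest mean the median was 18.7% with quartiles of 13.4% and 26.4%. The gap was present at low and high abundance, with medians of 32.2% and 19.8% for embryo means under 500 (46 members) and 25.01% and 17.7% for those of at least 500. A CV under 20% was found for 21 members (27.3%) and 55.5% of the coding transcripts, and a CV of at least 50% for 11 members (14.3%) and 3.20%. Over all 6 embryo libraries the highest value was less than 2 times the lowest for 28 members (36.4%) and for 71.7% of the coding transcripts. The rule used the same embryo libraries and can admit a transcript through 1 very high library, so it favours spread, and no test was made. Without embryo library 6 the members' median CV was 23.8%.

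Gene sums had a lower median CV than their member transcripts. The sums hold more reads, and the rule, which favours spread, chose the members and not the sums, so nothing is read from this gap. For the 37 members of genes with several transcripts the median CV was 29.7%, and for the sums of their genes it was 15.1%. For the 29 members with 1 transcript in the table the median CV was 28.9%. Transcripts of the same gene under unmatched accessions are not in these sums, and near-identical genes that could share reads with a member were not looked for.

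**Figure D5:**
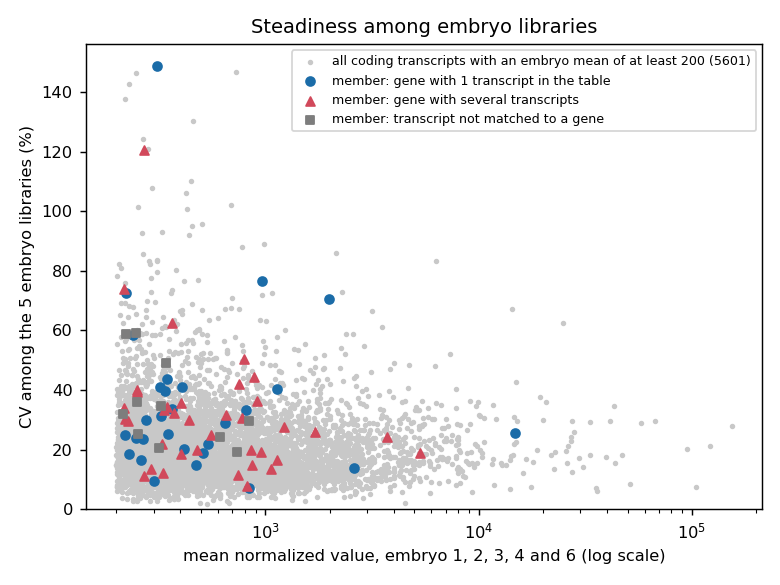
CV among embryo libraries 1, 2, 3, 4 and 6 (y axis, percent) against the mean normalized value of the same libraries (x axis, log scale), for 5601 coding transcripts (grey) and the 77 members coloured by kind of gene. Members spread from 6.97% to 149%, with a median of 29.7% against 18.7% for all.

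The steadiest members were LOC8267576, LOC8266654, LOC8280522 and LOC8263739, with CVs of 6.97%, 7.72%, 9.34% and 11.2%. LOC8280522 had 281, 305, 268, 339, 272 and 317 in embryo libraries 1 to 6, and LOC8263739 had 287, 249.8, 252, 244, 315 and 314. The first 3 of these were steady in embryo but not in endosperm, where library 5 stood at 538, 868 and 250.1 and each had at least 1 library at 0.

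The least steady members were LOC8267687, LOC8289503, LOC8265379 and LOC8285835, with CVs of 149%, 120%, 76.6% and 73.8%. LOC8267687 had 76.8, 192, 56.6, 93.8, 105 and 1127 in embryo libraries 1 to 6. It reached the embryo limit through library 6 alone, and in library 5 its embryo and endosperm values were 105 and 103. LOC8289503 had 167, 149.99, 143, 43.3, 334 and 843, with library 6 highest again. LOC8265379 had 419.6, 926, 429, 817, 913 and 2214, yet stayed at or below 63.2 in all endosperm libraries. LOC8285835 had 282, 244, 125, 7.09, 291 and 432, with library 4 near 0, while the sum of its gene there was 2325. Among the 10 members with an embryo mean of at least 1000, LOC8265625 was the least steady, at 1233, 1506, 1966, 4366, 1293 and 831, with library 4 highest.

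Embryo libraries 5 and 6 stood together, apart from the other 4, for 30 of the 77 members. In 13 members (16.9%) both lay below embryo libraries 1 to 4, and in 17 (22.1%) both lay above. Over the 5601 coding transcripts the shares were 18.9% and 13.1%, so this feature was not confined to the members. LOC8267314 is an example of the first kind, with 1334, 1078, 1423 and 1459.7 in embryo libraries 1 to 4, and 384 and 361 in libraries 5 and 6. LOC8284402, the most abundant member, is one of the second kind. Embryo library 4 was the highest of 6 for 20 members, library 5 for 18, library 6 for 17, libraries 1 and 3 for 9 each and library 2 for 4. As shares these were 25.97%, 23.4%, 22.1%, 11.7%, 11.7% and 5.19% in that order, near the 32.4%, 18.6%, 20.3%, 10.03%, 12.5% and 6.25% of the 5601 coding transcripts.

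As a background for these descriptions, embryo was compared with endosperm across all transcripts with edgeR's quasi-likelihood test on libraries 1, 2, 3, 4 and 6. Of 16605 tested transcripts, 20.3% were higher in embryo at an adjusted p of at most 0.05, and 76 of the 77 members were among them, all but LOC8289503. The rule used the same contrast, so nothing is read from the members' count. With all 12 libraries, 51 of the 77 members and 18% of all tested transcripts were called higher in embryo.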

How the data were processed

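RNA of 6 embryo and 6 endosperm samples was measured by mRNA sequencing (Illumina TrueSeq libraries, paired reads on a NextSeq, per the labels' protocols). The submitters' processing notes name Trimmomatic, Salmon and DESeq2. No version, transcript set or genome build is stated in the sources used here. The deposited table of estimated counts (expected counts as whole numbers) covers libraries 1, 2, 3, 4 and 6. The second deposited table holds normalized values (signal) of all 12 libraries, equal to the authors' counts divided by 1 size factor per library, as the constant ratio of the tables shows. For libraries 5, 100% of values were whole multiples of 1 step (tolerance 0.01 reads), and these whole reads gave their depth. Library totals were 2675474 to 12968343 reads, and intervals or limits from counts cover counting error only.

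The members, the lists and the comparisons were chosen with earlier results of these data known. Transcripts were matched to genes of ASM1957865v1 by accession without version, and no coordinates of it are used. Shares, CVs and ratios were computed from the normalized values in Python 3.11.15 (numpy 2.4.6, pandas 2.3.3, matplotlib 3.10.9). Named members are the 12 highest in embryo, the 6 largest ratios, the 4 lowest and 4 highest CVs, the 10 highest in a single endosperm library, neighbours and those at the limits; others are marked or serve as members of a small count. edgeR 4.0.16 in R 4.3.3 was used with TMM scaling, filterByExpr and Benjamini-Hochberg adjustment on the 10-library counts, and was tested on simulated data. DESeq2 1.42.0, other scalings, no filter, all 12 libraries, a replicate block and each library left out were alternatives. Planned searches of promoters, proteins and product names were not run, because no sequences or product names were used here. Between libraries of 1 tissue chi-square divided by its degrees of freedom was at least 20.6, so no pair was treated as 1 library.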

Additional observations from a re-analysis of the deposited data

Results flagged for a closer look

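A single library lay far from the other 5 of its tissue, by a Dixon ratio above its 95% critical value, in 24 of 68 groups of 6 values, made of the members' share of reads and the values of 33 named members in each tissue. Chance flags about 1 in 20 groups, or 3.4 of 68, but that is no yardstick here, since members were named partly for a high value in a single library and the rule kept the endosperm libraries other than 5 low. All 68 groups share the 12 libraries, so the flags are not independent. Endosperm library 5 was that library in 16 groups. It held 0.400% of its reads on the members, against a median of 0.0414% in endosperm. Normalized values of the member transcripts in endosperm library 5, each against the median of the 6 endosperm libraries, were as follows. LOC8284402 stood at 1917 against a median of 697 and LOC8274353 stood at 7870.2 against a median of 394. LOC8289805 stood at 1719 against a median of 442 and LOC8276659 stood at 1584 against a median of 133. LOC8265379 stood at 63.2 against a median of 12.7 and LOC8258424 stood at 1141 against a median of 132. LOC8263371 stood at 696 against a median of 0 and LOC8266654 stood at 868 against a median of 94.5. LOC8285835 stood at 469 against a median of 0 and LOC8289503 stood at 517 against a median of 0. Their gene sums in the endosperm libraries were 1136 to 2044 and 403 to 861. LOC8270362 stood at 963 against a median of 123 and LOC8269959 stood at 877 against a median of 65.3. LOC8258593 stood at 851 against a median of 79.1 and LOC8282148 stood at 828 against a median of 43.3. XM_015727917 of LOC8261747 stood at 399.5 against a median of 0.

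In embryo library 4, LOC8265625 stood at 4366 against a median of 1399.6 and LOC8269959 at 897 against a median of 714. In embryo library 6, LOC8265379 stood at 2214 against a median of 865, LOC8289503 at 843 against a median of 158 and LOC8267687 at 1127 against a median of 99.1. In embryo library 5, LOC8282148 stood at 1352 against a median of 562 and XM_015727917 of LOC8261747 at 718 against a median of 223. In endosperm library 4, LOC8284656 stood at 12.996 against a median of 0.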

How the results depend on the processing

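The number of members depended on its limits: it was 38 with a lowest embryo mean of 400, 248 with a lowest fold of 4, 33 with 16 and 45 over all 6 libraries of each tissue. Leaving out 1 library gave 71 to 118, the latter without endosperm library 4. The members' share of embryo reads was 0.491% with the members of the rule over all 6 libraries, 0.619% without the most abundant member and 0.717% to 1.08% with 1 library left out, outside 1 SD of 0.804% without endosperm library 2, 3 or 4. The share of endosperm reads was 0.0498% as reported, 0.0243% with the members of the rule over all 6 libraries, 0.108% as a mean over all 6 endosperm libraries, and 0.0432% to 0.0580% with 1 library left out. The members past 8-fold in library 5 numbered 34 to 37 with 1 library left out, but of sets of members that differed in size. They were 36 of 118 without endosperm library 4 and 35 of 71 without endosperm library 2, against 36 of 77 as reported. The members' median CV was 22.2% when gene sums replaced the members of genes with several transcripts, the other members keeping their own values. With the members' own values throughout it was 23.8% to 29.6% with 1 embryo library left out. Members appearing in a single endosperm library numbered 13 at 10% of the embryo mean, and 13 to 41 with 1 library left out, lowest without endosperm library 5 and highest without endosperm library 4. Members called higher in embryo by edgeR numbered 71 to 77 with 1 library left out. With the replicate number as a block (replicate block) they numbered 76, and 3241 of all transcripts were higher in embryo against 3378 without it. Same-numbered libraries correlated in their deviations at -0.049 to 0.125, over 0.1 for 1 of 5 numbers, and 3 of 5 numbers correlated best with their own. Whether same-numbered libraries share more than a number cannot be told from these values. With another number held out, the share past 8-fold was 71.4% to 90.7% of other sets of members, against 46.8%. Over coding transcripts it was 1.63% to 3.56%, against 2.59%. Values under the settings not given here stayed within 1.5 times the count or 1 SD of the value reported. The causes of these changes were not tested beyond the construction of each setting. The 2675474 reads of endosperm library 5 limit its low values most.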
